A study of Homo sapiens with 4 samples.

Results

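The genes examined were 10 members of the activator protein 1 (AP-1) group of transcription factors: FOS, FOSB, FOSL1, FOSL2, JUN, JUNB, JUND, ATF3, BATF2 and BATF3. Their open chromatin was read from ATAC-seq of HK1, an established line of human nasopharyngeal carcinoma cells. In this assay a transposase inserts sequencing adapters where DNA is accessible. A region belonged to a gene when it overlapped the gene body, or the 10 kb upstream of it, in the GENCODE annotation of GRCh38. Regions were the listed peaks of 4 libraries merged wherever they shared at least 1 base, and 31 of 93211 regions met the rule. The groups were wild-type cells without treatment (WT), wild-type cells given interferon-γ for 24 h (WT-IFN-γ), FLI1 knockout cells made with a guide RNA and left untreated (sgFLI1), and the knockout cells given interferon-γ for 24 h (sgFLI1-IFN-γ). Each group held 1 library, so differences have no replicate check, and no test was run. Whether the knockout cells were 1 clone or a pool is not given in the sources used here.

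AP-1 factors are basic leucine zipper proteins that bind DNA as dimers. JUN proteins pair with each other or with FOS proteins on the AP-1 site TGACTCA, whereas FOS proteins need a partner. ATF3 is a stress-induced relative that also binds the cAMP response element (CRE), TGACGTCA, and often lowers transcription. BATF proteins lack a transactivation domain, pair with JUN proteins and, in immune cells, join interferon regulatory factors (IRFs) on composite sites. Several of these genes are immediate early genes, whose promoters stand open before a stimulus and are switched on within minutes of growth factor or stress signals.

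Each value below is a summit pileup, the number of sequenced tags stacked over the highest point of a region, and regions are named by their gene and the distance in bp of that point from the gene's canonical transcription start site (minus for upstream). For comparisons, a pileup was divided by the tag density of its library, which was 8.04 tags per kb in WT cells and 8.84 after treatment, with 6.93 for sgFLI1 and 6.86 for sgFLI1-IFN-γ. The lists held 59629, 67470, 63203 and 59923 peaks in the same order. Intervals cover the 95% counting error within libraries only (exact Poisson for a pileup, exact conditional binomial for a ratio, Wilson for a share). For a difference between log2 ratios the interval is a normal approximation and not exact. The labelled cell type was checked on start sites: 4 of 6 epithelial genes (KRT5, KRT6A, KRT8 and DSP) had a region in every library. KRT5 and KRT6A held 23 to 51 tags and KRT8 and DSP 95 to 194, while PKP1 and TP63 had none at their canonical start. Among genes of other cell types, CD14 and COL1A2 had a region in every library, with 13 to 32 tags, while the leukocyte and endothelial genes PTPRC, CD3E and PECAM1 had none. The start site of FLI1, the targeted gene, was listed in WT (12 tags) and WT-IFN-γ (22 tags) and in neither knockout library. A peak list does not read the edit itself.

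The sequences that the results turn on were read from GRCh38 on the strand of each gene. The first set holds letters of the IRF core (GAAA, any 2 bases, then GAAA, on either strand), shown in capitals together with AP-1 letters where both occur. It is shown because the first region had a higher pileup, beyond counting error, in WT cells given interferon-γ, and the second was listed in those cells alone.
ATF3 −12491 (chr1:212596495-212596570, plus strand): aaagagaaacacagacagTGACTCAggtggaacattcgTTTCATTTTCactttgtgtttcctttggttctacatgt
ATF3 −12491, second stretch (chr1:212595985-212596035, plus strand): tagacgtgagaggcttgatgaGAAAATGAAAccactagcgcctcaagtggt
JUNB −2026 (chr19:12788990-12789050, plus strand): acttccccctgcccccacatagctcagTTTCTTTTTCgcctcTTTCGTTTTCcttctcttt

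The second set shows regulatory letters of constitutively open regions, and of the FOSL2 intron that differed between the genotypes. Capitals mark a CArG box (the serum response factor site) in FOS, a CRE and a CArG box in FOSB, a CRE in JUND, AP-1 and CRE in ATF3, and AP-1 in FOSL2.
FOS −258 (chr14:75278490-75278590, plus strand): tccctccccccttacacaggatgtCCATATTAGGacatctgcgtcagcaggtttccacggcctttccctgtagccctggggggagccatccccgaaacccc
FOSB −51 (chr19:45467655-45467755, plus strand): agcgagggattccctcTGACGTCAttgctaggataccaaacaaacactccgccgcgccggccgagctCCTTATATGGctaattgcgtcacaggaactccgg
JUND −81 (chr19:18281793-18281843, minus strand): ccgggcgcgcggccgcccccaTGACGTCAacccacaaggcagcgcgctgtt
ATF3 −49755 (chr1:212558986-212559096, plus strand): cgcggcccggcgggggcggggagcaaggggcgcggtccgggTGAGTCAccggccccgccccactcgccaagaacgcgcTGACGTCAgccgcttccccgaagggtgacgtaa
FOSL2 +16589 (chr2:28409387-28409507, plus strand): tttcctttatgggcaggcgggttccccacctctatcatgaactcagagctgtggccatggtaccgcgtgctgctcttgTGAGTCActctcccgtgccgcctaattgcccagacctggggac

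The 10 genes were open in all 4 libraries. Each had a start-site region in every list, where 12349 of 19962 protein-coding genes had one in WT. Of the 31 regions, 22 (71.0%) were listed in all 4 libraries, against 43.9% of all regions. The 22 include all 11 start-site regions, whereas 12200 of 93211 regions lay within 1 kb of a protein-coding start site. The shares thus come from unlike mixes of regions. Another 6 were listed in 1 library, 2 in 2 and 1 in 3. Regions per gene ran from 1 at JUND to 6 at ATF3, with a median of 3, against a median of 2 over 19970 protein-coding genes, of which 12.4% had none. The windows were not of equal length, since the ATF3 window spanned 65.4 kb and that of JUNB 11.8 kb. WT, sgFLI1 and sgFLI1-IFN-γ each listed 25 of the regions and WT-IFN-γ listed 26.

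The regions were tall, and so was the signal around them. Their median pileup was 112 tags in WT and 119 in WT-IFN-γ, with 98 (untreated) and 90 (treated) in knockout cells, and the median of the highest pileup was 111 tags, against 24 over all regions. The local background, the pileup that the peak caller expected from the surroundings, had a median of 36.6, 35.9, 27.6 and 24.9 tags at these regions, against 4.17, 3.92, 3.39 and 3.40 over all regions. Fold enrichment over that background was lower than usual, with medians of 3.08, 3.34, 3.59 and 3.51, against 5.67, 5.77, 5.81 and 5.71. Median GC content within 100 bp of the summit was 62.2%, against 49.8%.

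**Figure D1:**
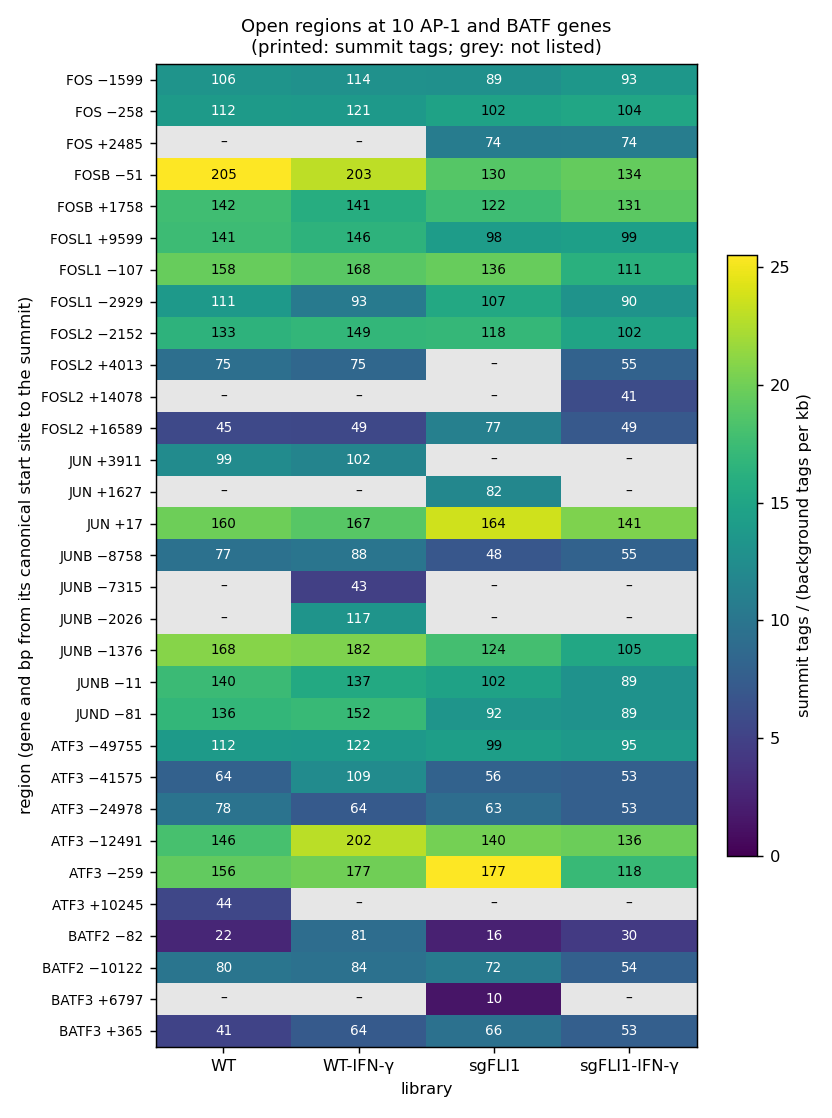
Depth-scaled summit pileup (colour, summit tags divided by background tags per kb) of the 31 regions in the 4 libraries, with the unscaled number of tags printed in each cell and grey cells where a region was not listed. BATF2 −82 went from 22 to 81 tags with interferon-γ in WT cells, while FOS −258 stood between 102 and 121 tags in all 4 libraries.

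Few of the regions passed 1.5-fold with interferon-γ, and few of all regions did. Shares over all regions come from lower pileups (median highest 24 tags, against 111 here) and were not matched for height. In WT cells 24 regions were listed with and without the cytokine, and their median log2 ratio was −0.03, against −0.07 over 49895 shared regions. 2 of the 24 were at least 1.5-fold higher, where 6.1% of all shared regions were, and 0 were at least 1.5-fold lower, where 7.19% were. 2 of the 26 regions of WT-IFN-γ were not listed in WT (7.69%, against 25.2% of all regions of that library), and 1 of the 25 regions of WT was not listed in WT-IFN-γ (against 15.8%). In knockout cells 23 regions were shared, with a median log2 ratio of −0.06, against −0.14 over 48600 shared regions. 1 was at least 1.5-fold higher, where 2.45% of all were, and 1 at least 1.5-fold lower, where 6.87% were. 2 of 25 were gained with the cytokine (against 17.8% of all) and 2 of 25 lost (against 22.1%).

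**Figure D2:**
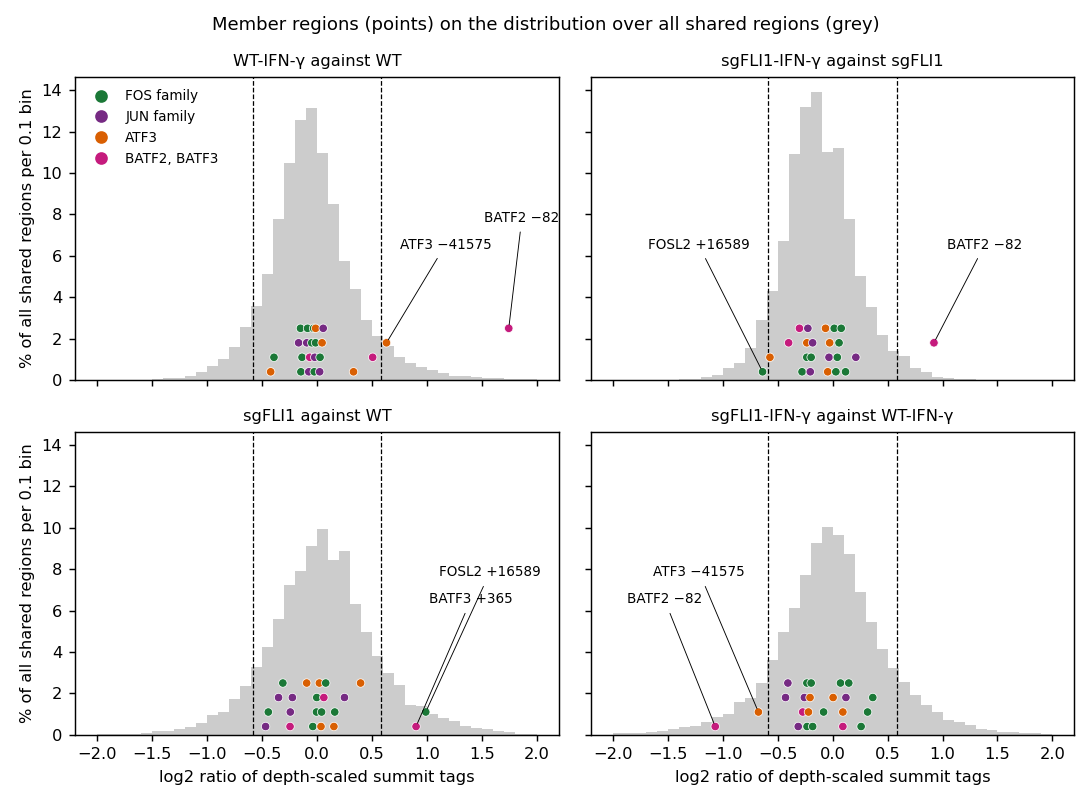
Log2 ratios of depth-scaled summit tags in the 4 comparisons, with the percentage of all shared regions per bin of 0.1 in grey and the regions of the 10 genes as coloured points, whose height carries no value. Dashed lines mark 1.5-fold, and most points lie between them, with BATF2 −82 at 1.74 in WT and 0.92 in knockout cells.

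FOS, the prototype of the family, had 3 regions. The start-site region FOS −258 (chr14:75278485-75279214, upstream of the gene, over the CArG box printed above) held 112 tags in WT cells and 121 after treatment, with 102 for sgFLI1 and 104 for sgFLI1-IFN-γ. After scaling the log2 ratio with interferon-γ was −0.02 (−0.41 to 0.36) in WT and 0.04 (−0.37 to 0.45) in knockout cells, so all 4 libraries overlapped within counting error. FOS −1599 (chr14:75277053-75277749, upstream) held 106, 114, 89 and 93 tags in the same order, and its interval spanned 0 in all 4 comparisons. FOS +2485 (chr14:75280775-75281440, in an exon) was listed in sgFLI1 and sgFLI1-IFN-γ, with 74 tags in each, and in neither WT list. It was a low entry in both, at −log10 q of 2.94 and 3.46. Had WT held the same depth-scaled pileup and background as sgFLI1-IFN-γ, it would have shown 86.8 tags, where 73 would have sufficed for listing. That limit takes a WT background of 49.3 tags. The local background was 58.8 in WT and 37.6 in sgFLI1-IFN-γ at FOS −258, and 45.0 and 30.9 at FOS −1599. A higher WT background at FOS +2485 would raise the limit, so absence from the WT lists does not show a lower pileup.

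FOSB, a FOS paralog, carried the highest pileup of any of the 31 regions in WT. FOSB −51 (chr19:45467573-45468364, upstream of the gene) held 205 tags in WT and 203 in WT-IFN-γ, with 130 (untreated) and 134 (treated) in knockout cells. Both WT libraries thus stood above both knockout libraries before scaling, while interferon-γ left the ratio at −0.15 (−0.44 to 0.14) in WT and 0.06 (−0.30 to 0.42) in the knockout. FOSB +1758 (chr19:45469064-45470597, in an intron and close to a further FOSB start site) held 142, 141, 122 and 131 tags.

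FOSL1, which encodes FRA-1, had its start-site region FOSL1 −107 (chr11:65899328-65900760) at 158 tags in WT cells and 168 after treatment, with 136 for sgFLI1 and 111 for sgFLI1-IFN-γ. AP-1 letters lay across its canonical start site, 112 bp from the summit. FOSL1 −2929 (chr11:65902998-65903607, upstream) held 111, 93, 107 and 90 tags. Its ratio with interferon-γ was −0.39 (−0.80 to 0.02) in WT and −0.23 (−0.66 to 0.18) in knockout cells. FOSL1 +9599 reached the window by 11 bases only, and its summit lay at the start of the neighbouring gene CCDC85B.

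FOSL2, which encodes FRA-2, had its highest region over the start site and the sequence before it (FOSL2 −2152, chr2:28390149-28393127), with 133, 149, 118 and 102 tags. The intronic region FOSL2 +16589 (chr2:28408433-28409692) held 45 tags in WT and 49 in WT-IFN-γ, with 77 (untreated) and 49 (treated) in knockout cells, and AP-1 letters lay 18 bp from its summit. It stood apart in untreated knockout cells, where it was 1.99-fold above WT (interval 1.36 to 2.94, log2 0.99). With interferon-γ it was 1.56-fold lower than in untreated knockout cells (log2 −0.64, −1.18 to −0.10), and the treated libraries of the genotypes differed by 0.37 (−0.24 to 0.97). By fold enrichment in place of pileup, the untreated difference was 0.41, below 1.5-fold. FOSL2 +4013 (intron) was listed with 75, 75 and 55 tags in WT, WT-IFN-γ and sgFLI1-IFN-γ. FOSL2 +14078 (intron) was listed in sgFLI1-IFN-γ alone, with 41 tags at −log10 q of 10.7. With its background scaled alike, about 50% of its depth-scaled pileup would have sufficed for listing in the other lists (49.2% to 53.1%).

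JUN, the partner that most AP-1 dimers contain, had a broad start-site region (JUN +17, chr1:58782955-58785291) with 160 tags in WT cells and 167 after treatment, with 164 for sgFLI1 and 141 for sgFLI1-IFN-γ. The ratio with interferon-γ was −0.07 (−0.40 to 0.25) in WT and −0.20 (−0.54 to 0.13) in the knockout. JUN +3911, past the end of the canonical transcript and with AP-1 letters 26 bp from its summit, was listed in WT (99 tags) and WT-IFN-γ (102 tags) and in neither knockout list. JUN +1627, in the exon, was listed in sgFLI1 alone (82 tags). These entries lay near the listing limit: −log10 q was 3.76 and 5.997 for the first and 2.69 for the second. With the background scaled alike, 88.0% to 91.2% of the depth-scaled pileup would have been needed for listing elsewhere.

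JUNB, a JUN paralog that responds to cytokines in many cells, had 5 regions, whose summits lie within the body of the neighbouring gene HOOK2. The start-site region JUNB −11 (chr19:12791303-12791954) held 140, 137, 102 and 89 tags. JUNB −1376 (chr19:12789867-12790897), the taller of the pair, held 168, 182, 124 and 105 tags. Neither differed with interferon-γ beyond counting error, with log2 ratios of −0.17 and −0.02 in WT and −0.18 and −0.22 in knockout cells. JUNB −8758 (chr19:12782445-12783208, nearest to a HOOK2 start site) held 77, 88, 48 and 55 tags.

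Both regions gained with interferon-γ in WT cells were at JUNB. JUNB −2026 (chr19:12788968-12789595) was listed in WT-IFN-γ alone, with 117 tags over a local background of 68.5 at −log10 q of 5.34. It holds the paired IRF letters printed above, at −443 and −428 bp from its summit, and AP-1 letters 56 bp from it. The same depth-scaled pileup would have given 106 tags in WT, 91.8 in sgFLI1 and 90.8 in sgFLI1-IFN-γ, where listing would have needed 89, 79 and 78. Those limits take the background as scaled by depth, to 62.4, 53.7 and 53.2 tags. At JUNB −1376 it was 72.6, 38.2 and 37.2. JUNB −7315 was listed in WT-IFN-γ alone too, with 43 tags at −log10 q of 2.03, and the same level would not have been listed in either knockout library.

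JUND, the JUN paralog expressed most steadily across cell types, had 1 region, at its start site (JUND −81, chr19:18281178-18282381). It held 136 tags in WT and 152 in WT-IFN-γ, with 92 (untreated) and 89 (treated) in knockout cells. The log2 ratio with interferon-γ was 0.02 (−0.32 to 0.37) in WT and −0.03 (−0.47 to 0.40) in the knockout. A neighbouring region began 138 bp beyond the upstream limit of the window and held 156, 163, 98 and 100 tags.

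**Figure D3:**
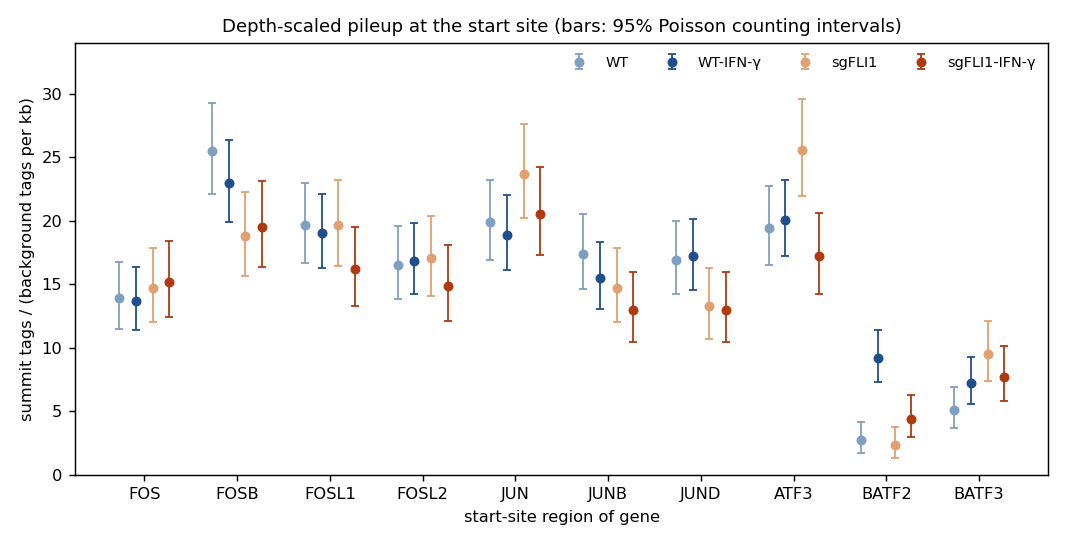
Depth-scaled summit pileup (summit tags divided by background tags per kb) at the start-site region of each gene in the 4 libraries, with 95% Poisson counting intervals. FOS, FOSL1, FOSL2 and JUN overlap across libraries, and BATF2 stands at 2.74 in WT cells and 9.17 after treatment, with 2.31 for sgFLI1 and 4.37 for sgFLI1-IFN-γ.

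ATF3 had 6 regions over a long locus with an upstream start site 43.4 kb before the canonical one. The region near that upstream start, ATF3 −41575 (chr1:212566607-212567766, 1852 bp past the upstream start and before the canonical transcript), held 64 tags in WT and 109 in WT-IFN-γ, with 56 (untreated) and 53 (treated) in knockout cells. WT-IFN-γ stood alone above the other libraries. The region was 1.55-fold higher with interferon-γ in WT (interval 1.13 to 2.14, log2 0.63, percentile 94.7 of all shared regions), and the log2 ratio in knockout cells was −0.06 (−0.63 to 0.50). It was 1.60-fold lower in sgFLI1-IFN-γ than in WT-IFN-γ (log2 −0.67, −1.18 to −0.19). By fold enrichment these differences were 0.34 and −0.30 on the log2 scale, below 1.5-fold.

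ATF3 −12491 (chr1:212595569-212596743), between the start sites, was also highest in WT-IFN-γ, with a smaller difference. It held 146 tags in WT cells and 202 after treatment, with 140 for sgFLI1 and 136 for sgFLI1-IFN-γ. The log2 ratio with interferon-γ was 0.33 (0.02 to 0.65) in WT and −0.03 (−0.38 to 0.32) in knockout cells. The WT ratio was at percentile 86.3 of all shared regions. Treated knockout against treated WT came to −0.21 (−0.53 to 0.12). The difference in change, knockout minus WT, was −0.36 (−0.82 to 0.10). Both regions hold 2 matches of the IRF letters each, and AP-1 letters, those of ATF3 −12491 being printed above. ATF3 −49755 (chr1:212558133-212559487), with CRE and AP-1 letters near the summit, held 112, 122, 99 and 95 tags, and its interval spanned 0 in all 4 comparisons. ATF3 −24978 (chr1:212583169-212584364) held 78, 64, 63 and 53 tags. ATF3 +10245 (intron) was listed in WT alone, with 44 tags at −log10 q of 3.57.

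The canonical start-site region, ATF3 −259 (chr1:212607929-212609653), was highest in sgFLI1 after depth scaling. It held 156 tags in WT and 177 in WT-IFN-γ, with 177 (untreated) and 118 (treated) in knockout cells. In WT cells its log2 ratio with interferon-γ was 0.05 (−0.27 to 0.37), whereas in knockout cells it was −0.57 (−0.92 to −0.23), just under 1.5-fold lower. Untreated knockout cells stood above WT by 0.40 (0.08 to 0.72), with the median of other regions within 5 Mb at 0.13. By fold enrichment that difference was 0.62, past 1.5-fold.

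BATF2, a BATF member inducible by interferon-γ in macrophages, gave the largest difference with interferon-γ among the 31 regions. Its start-site region, BATF2 −82 (chr11:64996572-64997400), held 22 tags in WT cells and 81 after treatment, with 16 for sgFLI1 and 30 for sgFLI1-IFN-γ. Both treated libraries stood above both untreated ones. In a bulk library, fewer cells with an open site and less opening per cell cannot be told apart. It was 3.35-fold higher with interferon-γ in WT (interval 2.07 to 5.64, percentile 99.8 of all shared regions) and 1.89-fold higher in knockout cells (1.00 to 3.72, percentile 99.7). Of the 6 marker start sites with a region, KRT6A was at least 1.5-fold higher with interferon-γ in WT cells (23 and 48 tags, log2 0.93), and 0 were in knockout cells. With interferon-γ the region was 2.096-fold lower in knockout than in WT cells (log2 −1.07, −1.72 to −0.45), and untreated cells differed by −0.24 (−1.27 to 0.75).

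The local background at BATF2 −82 differed along with its pileup, going from 3.24 to 6.91 tags in WT and from 2.31 to 3.09 in knockout cells. Fold enrichment was 5.42 in WT and 10.4 in WT-IFN-γ, with 5.14 (untreated) and 7.58 (treated) in knockout cells. On that scale the log2 ratio was 0.93 in WT and 0.56 in knockout cells, the latter below 1.5-fold, and treated knockout against treated WT came to −0.45. The other region, BATF2 −10122, lay across the upstream limit with 271 bases inside it, nearest to the ARL2 start site, and held 80, 84, 72 and 54 tags. The next region outside the window lay 6423 bp beyond it.

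BATF3, known for its part in dendritic cell development, had its start-site region BATF3 +365 (chr1:212698996-212699977, in an intron) at 41 tags in WT cells and 64 after treatment, with 66 for sgFLI1 and 53 for sgFLI1-IFN-γ. WT was the low library of the 4. The log2 ratio with interferon-γ was 0.51 (−0.08 to 1.11) in WT and −0.30 (−0.85 to 0.24) in knockout cells. Untreated knockout cells stood 1.87-fold above WT (interval 1.25 to 2.83, log2 0.90), and the treated libraries differed by 0.09 (−0.46 to 0.64). BATF3 +6797 was listed in sgFLI1 alone, with 10 tags at −log10 q of 2.57.

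The change with interferon-γ was compared between the genotypes at the 22 regions listed in all 4 libraries. The counting interval of the difference, knockout minus WT, lay below 0 at 2 regions, where 4.76% of 40876 regions did, and above 0 at 0, where 1.3% did. Those 2 were ATF3 −259, with a difference of −0.62 (−1.07 to −0.16), and BATF3 +365, with −0.81 (−1.58 to −0.04). With the medians of all shared regions (−0.07 in WT and −0.14 in knockout cells) set to 0, the interval at BATF3 +365 would span 0. At BATF2 −82 the difference was −0.82 (−1.93 to 0.29) and at ATF3 −41575 it was −0.70 (−1.40 to 0.0047), so counting error alone spanned 0 at both. The change had opposite signs in the genotypes at 11 of the 22 regions, where it did at 45.2% of all regions listed in all 4 libraries. The FOS and JUN family regions lay between −0.23 and 0.26, except FOSL2 +16589 at −0.62 (−1.40 to 0.16).

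**Figure D4:**
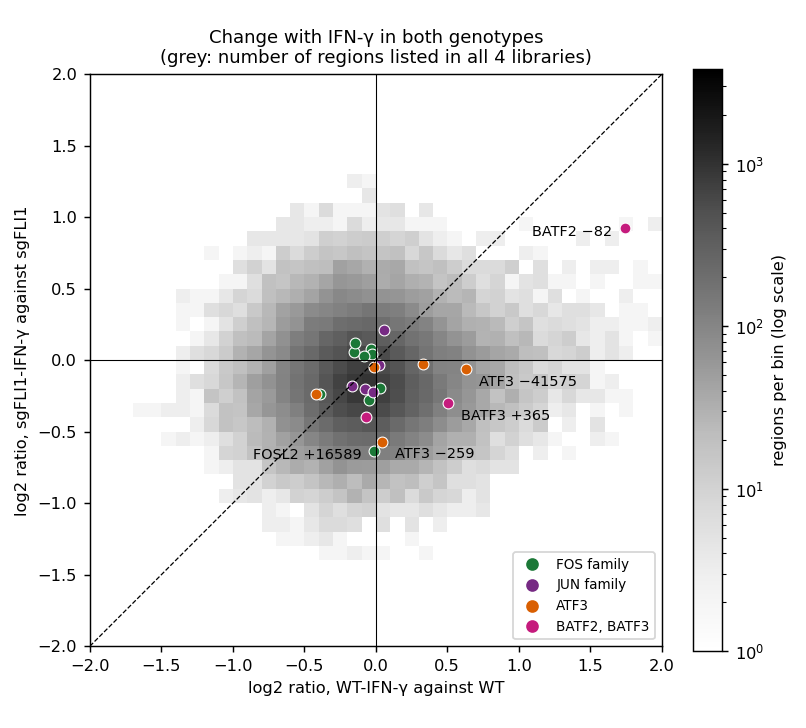
Log2 ratio with interferon-γ in WT cells (horizontal) and in FLI1 knockout cells (vertical) at the 22 regions listed in all 4 libraries, on the number of all such regions per bin in grey (log colour scale). The dashed diagonal marks equal change, and BATF2 −82, ATF3 −41575, ATF3 −259, BATF3 +365 and FOSL2 +16589 lie below it.

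Few regions differed past 1.5-fold between the genotypes, beside shares over all regions that were not matched for pileup height. Without treatment 22 regions were shared, with a median log2 ratio of 0.01, against 0.05 over 46650 regions. 2 were at least 1.5-fold higher in sgFLI1 (FOSL2 +16589 and BATF3 +365), where 12.8% of all were, and 0 at least 1.5-fold lower, where 8.4% were. By fold enrichment the 2 were BATF3 +365 (0.60) and ATF3 −259 (0.62), with FOSL2 +16589 at 0.41. By pileup minus background 3 regions passed, with ATF3 −259 at 0.60. In the same comparison 3 of the 6 marker start sites with a region were at least 1.5-fold higher in sgFLI1, namely CD14 (14 tags in WT and 32 in sgFLI1, log2 1.41), KRT6A (log2 1.05) and KRT5 (log2 0.89), and 0 were lower. Their part in the values at FOSL2 +16589 and BATF3 +365 was not tested. 3 of 25 regions were listed in sgFLI1 and not in WT (against 25.2% of all), and 3 of 25 the reverse (against 21.3%). With interferon-γ 23 regions were shared, with a median of −0.20, against −0.02 over 47449 regions. By fold enrichment in place of pileup, the median of the 23 was −0.021. 0 were at least 1.5-fold higher, where 10.5% of all were, and 2 at least 1.5-fold lower (BATF2 −82 and ATF3 −41575), where 10.7% were. Of the 6 marker start sites, KRT5 was higher there (log2 1.01) and 0 were lower. 2 of 25 were listed in sgFLI1-IFN-γ and not in WT-IFN-γ (against 19.7%), and 3 of 26 the reverse (against 28.9%).

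By depth-scaled pileup, the start-site regions on chromosome 19, those of FOSB, JUNB and JUND, stood lower in knockout cells together with their surroundings. FOSB +1758 did not (−0.0045 untreated, 0.26 treated). The median log2 ratio of all regions of that chromosome was −0.18 without treatment and −0.20 with it. FOSB −51 stood at −0.44 in sgFLI1 against WT (−0.77 to −0.12), with a median of −0.15 over the other regions within 5 Mb. JUNB −1376 stood at −0.43 in sgFLI1-IFN-γ against WT-IFN-γ (−0.79 to −0.07), with −0.23 around it. JUND −81 stood at −0.41 there (−0.80 to −0.02), with −0.22 around it. Relative to those surroundings the differences came to −0.29, −0.20 and −0.19. The local background was lower as well, in tags not scaled for depth. The background went from 65.8 to 39.2 tags at FOSB −51, from 69.8 to 37.2 at JUNB −1376 and from 40.5 to 24.6 at JUND −81. Tag density was itself lower in knockout cells, at 6.93 against 8.04 per kb untreated and 6.86 against 8.84 treated. By fold enrichment the ratios were 0.08, 0.10 and −0.07 in the same order. Those were the comparisons whose interval lay away from 0. It spanned 0 at FOSB −51 treated (−0.23, −0.56 to 0.09). It did so untreated at JUNB −1376 (−0.22, −0.57 to 0.12) and JUND −81 (−0.35, −0.75 to 0.04). At JUNB −11 both intervals spanned 0 (−0.24 untreated, −0.26 treated). By fold enrichment these came to −0.07, 0.47 and 0.19, and at JUNB −11 to 0.47 untreated and 0.28 treated. The part of the chromosome-wide difference in these values was not tested.

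**Figure D5:**
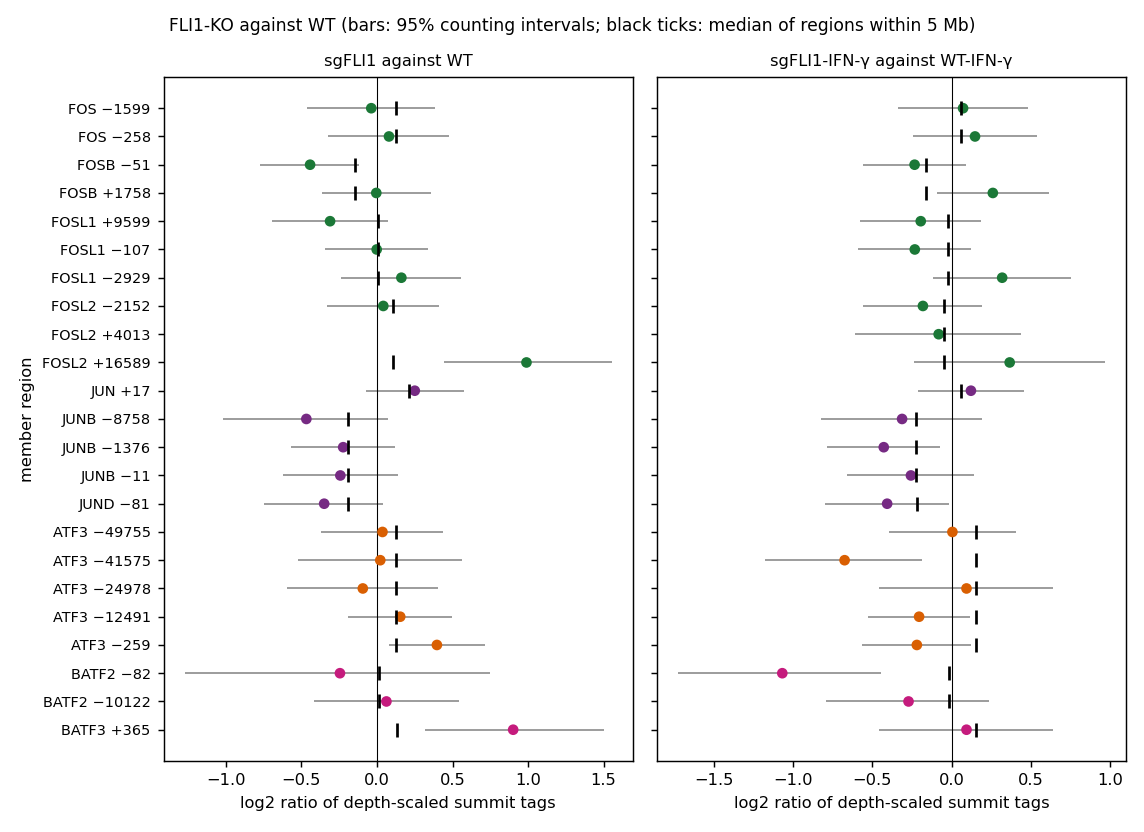
Log2 ratio of depth-scaled summit tags, FLI1 knockout against WT, without (left) and with interferon-γ (right), at each region listed in both libraries, with 95% counting intervals and black ticks for the median of all other regions within 5 Mb. The ticks of the FOSB, JUNB and JUND regions lie between −0.15 and −0.23, and BATF2 −82 reaches −1.07 on the right.

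Start-site regions were also counted by gene. With interferon-γ, BATF2 was the 1 gene of 10 at least 1.5-fold higher in WT, where 1.24% of protein-coding genes with a start-site region in both libraries were, and 0 were lower, where 1.46% were. It was again the 1 gene higher in knockout cells, where 0.517% were, and 0 were lower, where 2.82% were. In sgFLI1 against WT, BATF3 was the 1 gene higher (against 3.1%) and 0 were lower (against 4.01%). Between the treated libraries 0 were higher in the knockout (against 2.21%) and BATF2 was the 1 gene lower (against 5.25%).

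Other genes of the pathway gave no start-site call past 1.5-fold in any of the 4 comparisons, with 25 genes compared in each. Among all protein-coding genes compared, 0.517% to 5.25% were called in a direction, so a count of 0 is near that share. Of 35 listed genes, 26 had a start-site region in WT and in sgFLI1-IFN-γ, and 25 in the remaining libraries. Of the 13 partner leucine zipper genes, 11 had one in WT and 10 in each other library. The exception was BATF, the founding member of the BATF family, listed in WT alone with 10 tags, where the lowest pileup of that list was 8. Of the 10 genes of MAP kinases and their nuclear targets, which relay the signals that activate AP-1, 9 had one in every library. All 4 dual-specificity phosphatase genes, whose products switch those kinases off, had one in every library. Of 8 classical AP-1 target genes 2 had one in every library, and the matrix metalloproteinase gene MMP10 was listed in sgFLI1-IFN-γ alone, with 18 tags.

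AP-1 letters, TGACTCA or its reverse complement TGAGTCA, occurred within 100 bp of the summit in 6 of the 31 regions (19.4%, Wilson interval 9.19% to 36.3%), against 18.3% of all regions. None of the 11 start-site regions had them, where 3.61% of all regions within 1 kb of a protein-coding start site did, and 6 of the 20 elsewhere did (30.0%, 14.5% to 51.9%), against 20.5%. They were JUNB −2026, FOSL2 +16589, JUN +3911, ATF3 −49755, ATF3 −41575 and ATF3 +10245. Within the same 100 bp the CRE, TGACGTCA, occurred in 1 region (ATF3 −49755, 3.23%, against 0.588% of all) and the CArG box in 1 (FOS −258, 3.23%, against 0.992%). Anywhere in the listed spans each occurred in 3 regions, which include the FOSB −51 and JUND −81 matches printed above. The ETS letters CCGGAAGT, the kind of site FLI1 binds, occurred within 100 bp of the summit in 0 of 31, against 0.991% of all, and farther off in 1 region, JUN +17. These are matches of letters and not measured binding.

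IRF letters were searched after the values had been seen. They occurred within 100 bp of the summit in 2 of 31 regions (6.45%, against 4.58% of all) and within 500 bp in 6 (19.4%, against 15.99%). The 4 regions with a match within 500 bp that were listed in both WT libraries had log2 ratios with interferon-γ from −0.031 (FOS −1599) to 1.74 (BATF2 −82) in WT cells, and the 20 other regions from −0.42 to 0.51, so the ranges overlapped. Counted inside the listed spans instead, the letters occurred in 4 regions (BATF2 −82, ATF3 −41575, ATF3 −12491 and JUNB −2026), which leaves out FOS −1599. In knockout cells the ratios were 0.92 at BATF2 −82, −0.06 at ATF3 −41575, −0.03 at ATF3 −12491 and 0.08 at FOS −1599. Over all regions, 28.4% of those at least 1.5-fold higher with interferon-γ in WT held IRF letters within 500 bp of the summit (26.9% to 30.1%), against 12.5% of those within 1.5-fold (12.2% to 12.8%).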

How the data were processed

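ATAC-seq peak lists of 4 HK1 libraries were analysed. The authors used Trimmomatic 0.3 for trimming and Bowtie2 2.3.4.1 for alignment to GRCh38, removed alignments with a mapping quality under 30 and PCR duplicates, and called peaks with MACS2 2.1.2 at a q-value of 0.05. Versions are those of the submitters' processing notes. They then ran an irreproducible discovery rate (IDR) analysis and kept peaks at an IDR of at most 0.05. Whether the deposited lists are from before or after that step, whether a list rests on 1 replicate or on pooled ones, and whether the transposase offset was corrected are not given in the sources used here. The deposited columns hold a score (10 times the −log10 q), the fold enrichment ratio over the local background, the −log10 p and −log10 q, and the summit position.

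The whole-number summit pileup and the local background were solved from the fold and −log10 p that the authors deposited, which succeeded for 100% of peaks in each list. Tag density was the median of the lowest local backgrounds of a list divided by its shortest peak, which takes that length as the tag extension. Regions listed in both libraries were compared by the log2 ratio of depth-scaled pileups, and a call was a ratio of at least 1.5-fold. Where a library had several peaks in a region, the tallest was used. Start-site regions came within 1 kb of the canonical start site. Surroundings were the other shared regions within 5 Mb. Motifs were searched on both strands in the hg38 sequence, which has the chromosome lengths the peaks need. PCR reads without molecular identifiers are not independent molecules, and the intervals take in counting error alone.

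All 10 genes are described, each by its start-site region, its highest other regions and regions gained in WT. The genes, gene lists and motifs were chosen with earlier results of these data known, and the IRF letters, the surroundings and the pileup minus background were added after the values were seen. Other alternatives were a −log10 q of at least 5, 3 kb upstream, lists of equal length, peaks covered by at least 50%, centred ratios, pileups summing to over 60 tags, fold enrichment, and motifs within 50 bp. Some sequences and a marker gene are not reported here. The steps were tested on simulated data. Software was scipy 1.17.1, numpy 2.4.6, matplotlib 3.10.9 and pandas 2.3.3 in Python 3.11.15.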

Additional observations from a re-analysis of the deposited data

Results flagged for a closer look

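At 11 of the 22 regions listed in all 4 libraries, the change with interferon-γ had opposite signs in WT and FLI1 knockout cells, where it did at 45.2% of all such regions. With 1 library a group the difference was not tested. Under tag-density scaling, the counting interval of the difference lay away from 0 at ATF3 −259 and BATF3 +365 only. The log2 ratio was 0.046 in WT and −0.57 in knockout cells at ATF3 −259, and 0.51 and −0.30 at BATF3 +365. It was 0.63 and −0.064 at ATF3 −41575, and 0.33 and −0.027 at ATF3 −12491. The ratios were −0.031 and 0.078 at FOS −1599, −0.024 and 0.043 at FOS −258, −0.15 and 0.059 at FOSB −51, and −0.15 and 0.12 at FOSB +1758. They were −0.086 and 0.030 at FOSL1 +9599, 0.028 and −0.20 at FOSL2 −2152, and 0.025 and −0.033 at JUND −81. The signs are those of the tag-density scaling, under which the median of all shared regions was −0.07 in WT and −0.14 in knockout cells. With those medians set to 0, the signs were opposite at 10 of the 22 regions (49.6% of all), of which 6 were among the 11. The signs were then alike at ATF3 −41575 (0.70 and 0.073), ATF3 −12491 (0.40 and 0.11), FOS −1599, FOS −258 and JUND −81. The interval of the difference would then span 0 at BATF3 +365 and still lie below 0 at ATF3 −259.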

How the results depend on the processing

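No paired analysis was possible because each group held 1 library and the labels give no replicate numbers. Of 175 alternative values over 39 results, 149 stayed on the same side and within the margin set for them. Counts of regions under the alternatives below are given without shares over all regions. They cannot be set against a usual rate. With the median of all shared regions set to 0, the median log2 ratio of the regions became 0.042 with interferon-γ in WT, 0.073 in knockout cells and −0.038 for sgFLI1 against WT, and 0 regions were 1.5-fold lower with interferon-γ in the knockout. By fold enrichment the medians were 0.17 in WT with interferon-γ, 0.29 for sgFLI1 against WT and −0.021 for treated knockout against treated WT. On that scale 1 region was 1.5-fold higher with interferon-γ in WT, 0 in the knockout, and 0 were lower in treated knockout against treated WT. By fold enrichment FOSB −51 turned to 0.082 for sgFLI1 against WT and JUNB −1376 to 0.10 for the treated libraries. By pileup minus background the median in WT with interferon-γ was 0.056, 2 regions were 1.5-fold lower with interferon-γ in the knockout, and 1 was higher in treated knockout against treated WT. With 3 kb upstream, 1 region was gained with interferon-γ in WT and the median for sgFLI1 against WT was −0.0018. With lists of equal length 1 region was gained in WT and 1 lost in the knockout with interferon-γ. At a −log10 q of at least 5, 0 regions were lost with interferon-γ in either genotype, 0 were gained and 1 lost in sgFLI1 against WT, and 1 was gained in the treated knockout against treated WT. With over 60 tags summed, 0 regions were 1.5-fold higher with interferon-γ in the knockout, since BATF2 −82 held fewer. Other causes were not tested. Depth limits the least certain values, at BATF2 −82, whose 16 and 22 untreated tags leave wide intervals.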
